A study of Mus musculus with 20 samples.

Results

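The nuclear genes for subunits of the oxidative phosphorylation complexes were followed across 5 populations of mouse macrophages. The members were all gene symbols of the count files that start with Ndufa, Ndufb, Ndufc, Ndufs, Ndufv, Sdha, Sdhb, Sdhc, Sdhd, Uqcr, Cox4i, Cox5, Cox6, Cox7, Cox8 or Atp5. Assembly factors (Ndufaf, Sdhaf) and pseudogene symbols were left out. The rule used names only, and it found 85 of 24421 symbols. By their symbols, 38 belong to complex I, 4 to complex II, 8 to complex III, 18 to complex IV and 17 to complex V. Of the 85, 81 passed the filter on low counts and were tested. Cox7b2 and Cox8c had no count in any library, and Cox4i2 and Ndufs5 were too low, so "tested members" below are not all members.

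The cells came from C57BL/6JRj mice, with no genetic change or treatment given in the labels. Macrophages of the dura mater, the outer membrane around the brain, were split into MHC II-high and MHC II-low cells (the titles of the low ones read "int", their cell type reads "lo"). The others were choroid plexus macrophages, microglia (the macrophages of the brain tissue itself) and macrophages of the peritoneal cavity. Total RNA was sequenced in 4 libraries per population, 20 in all, with 13383274–32611875 reads assigned to genes in a library. The labels give no age, sex or isolation step, nor whether each replicate is a separate animal. The p-values thus reflect only how far these libraries spread, which may be technical variation.

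Oxidative phosphorylation is the last stage of respiration in mitochondria. Complex I takes electrons from NADH, and complex II, which is also the succinate dehydrogenase of the citric acid cycle, takes them from succinate. Complex III passes them to cytochrome c, and complex IV (cytochrome c oxidase) passes them to oxygen. Complexes I, III and IV pump protons, and complex V (ATP synthase) uses the proton gradient to make ATP. In each complex but II, some of the central subunits are encoded in mitochondrial DNA. Nuclear genes supply the rest, among them the many small accessory subunits. Macrophages differ in how far they rely on respiration or glycolysis, with activation state and with tissue.

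Levels below are in CPM, counts scaled to 1e+06 gene counts per library with TMM factors, and the test is edgeR's quasi-likelihood F test fitted on all 20 libraries and 13960 genes. A gene was called at a Benjamini-Hochberg adjusted p under 0.05. Log2 fold changes are positive where the population named first is higher.

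The libraries were checked for markers of their labels. Summed over 5 microglial markers, the microglia held 23440–31600 CPM and the other populations 374–6177 CPM. Gata6 and Icam2, markers of peritoneal macrophages, summed to 1116–1413 CPM in peritoneal libraries and to at most 15.4 CPM elsewhere. MHC class II genes summed to 52460–58910 CPM in the high and 2089–2320 CPM in the low dura libraries. Mrc1, Pf4, Ms4a7 and Cd163 mark macrophages at the borders of the brain. Their log2 fold changes against microglia were 6.66–11.3 in the dura populations and choroid plexus. Against MHC II-high dura, peritoneal macrophages were lower in Mrc1, Ms4a7 and Cd163 (-10.25 to -4.52) but higher in Pf4 (1.09). Microglia replicate 3 stood apart: its 10 markers of choroid plexus epithelium summed to 20370 CPM, against 66.4, 332 and 717 CPM in the other 3 microglia libraries. The choroid plexus libraries held 3994–7526 CPM of these markers, dura libraries 6.36–31.5 CPM, and peritoneal libraries at most 0.448 CPM, with Ttr, Kl, Clic6, Otx2 and Sostdc1 at 0. Fibroblast markers summed to 89.3 CPM in microglia replicate 3 and to 2.05–5.64 CPM in the other microglia. Among them, Col1a1 and Col1a2 were called higher than in microglia in both dura populations and choroid plexus (2.44–4.40). Dcn and Lum were called higher than in microglia in choroid plexus but in neither dura population. In bulk RNA, fewer cells of a type and less RNA per cell cannot be told apart. The total counts of members called against microglia are therefore given with and without replicate 3. Values of single genes, counts by complex and the marker calls above include it unless stated.

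Many of these genes are known to be controlled together by the factors NRF1, GABPA (also called NRF2) and YY1, which bind short motifs close to the start of transcription. RefSeq promoter windows (GRCm38.p6, 250 bases before the start to 50 bases after it) were matched for 67 of the 85 members. On either strand, GCGCANGCGC, the core of the NRF1 motif, was found in 17 members (25.4%) and in 5.19% of 27025 genes with a window. A gene counted if any of its windows matched. CCGGAAG, the core of the GABPA motif, was found in 16 members (23.9%) and in 9.93% of these genes. AAGATGGCG, the core of the YY1 motif, was found in 7 members (10.4%) and in 1.64% of these genes. At least 1 of these motifs was in 34 members (50.7%) and in 15.1% of these genes. The TATA box letters TATAAA were in 7 members (10.4%) and in 15.7% of these genes. These spellings were chosen after several had been counted, matches of the motifs did not overlap, and a match describes letters, not binding.

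The 5 stretches printed here are 1 promoter per complex, that of the member with the largest change between peritoneal macrophages and microglia among those with a match outside annotated exons. Each lies just upstream of the transcription start and reads 5′ to 3′ on the strand of the gene, with the motif match in capitals. CTTCCGG is CCGGAAG read on the other strand. The Ndufa11 stretch (chr17:56717686-56717761, plus strand) has an NRF1 match starting 60 bases before the RefSeq start, and that of Cox6a1 (chr5:115348982-115349081, minus strand) has one 117 bases before it. GABPA matches start 46 bases before it in Sdhd (chr9:50603850-50603909, minus strand), 66 bases in Uqcr11 (chr10:80406831-80406930, minus strand) and 102 bases in Atp5e (chr2:174464106-174464205, minus strand).
Ndufa11: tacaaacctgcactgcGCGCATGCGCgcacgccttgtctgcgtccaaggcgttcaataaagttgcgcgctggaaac
Sdhd: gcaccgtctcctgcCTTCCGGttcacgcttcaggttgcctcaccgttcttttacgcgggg
Uqcr11: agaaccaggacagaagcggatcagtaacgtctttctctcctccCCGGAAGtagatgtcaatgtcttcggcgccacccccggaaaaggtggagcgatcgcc
Cox6a1: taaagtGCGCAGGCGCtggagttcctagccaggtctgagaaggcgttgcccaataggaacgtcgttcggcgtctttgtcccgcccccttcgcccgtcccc
Atp5e: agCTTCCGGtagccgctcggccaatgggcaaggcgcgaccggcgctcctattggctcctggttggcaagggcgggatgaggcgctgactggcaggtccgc

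The summed level of all members was highest in peritoneal macrophages, at 8704, 7393, 10220 and 7024 CPM in replicates 1 to 4, and lowest in microglia, at 3423, 5696, 3801 and 3363 CPM in replicates 1, 3, 4 and 5. The ranges were 5404–5886 CPM in MHC II-high dura libraries, 4825–5159 CPM in low ones and 5028–5663 CPM in choroid plexus. Every peritoneal library was above every other library, and microglia replicate 3 lay among the dura and choroid plexus libraries. The mean was 8335 ± 1449 CPM (SD, n = 4) in peritoneal macrophages and 4071 ± 1101 CPM (SD, n = 4) in microglia, a ratio of 2.05. Without replicate 3 the microglia mean was 3529 ± 238 CPM (SD, n = 3) and the ratio 2.36.

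By complex, the ratio of peritoneal to microglia means was 2.08 for complex I, 1.6 for complex II, 1.82 for complex III, 2.96 for complex IV and 1.97 for complex V. Without microglia replicate 3 these ratios were 2.38, 1.7, 2.07, 3.76 and 2.29. In these sums complex IV had the widest gap and complex II the narrowest, with and without that library. By the median log2 fold change of its members, complex III was ahead of complex IV (1.64 and 1.40, and 2.05 and 1.88 without replicate 3). With an offset for exon length, described below, complex IV was no longer ahead of complex II by the median. The middle complex IV member there was Cox7a2l, at 0.54. Sdha, Sdhb, Sdhc and Sdhd were at 0.60, 0.13, 0.72 and 0.69. The sums carry no such offset. The complex IV sum was 1440, 1186, 1681 and 1002 CPM in the peritoneal libraries and 336, 738, 393 and 329 CPM in microglia replicates 1, 3, 4 and 5. The complex II sum was 776, 709, 798 and 733 CPM in peritoneal libraries and 461, 548, 451 and 422 CPM in the microglia. In both sums no peritoneal library overlapped any microglia library.

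**Figure D1:**
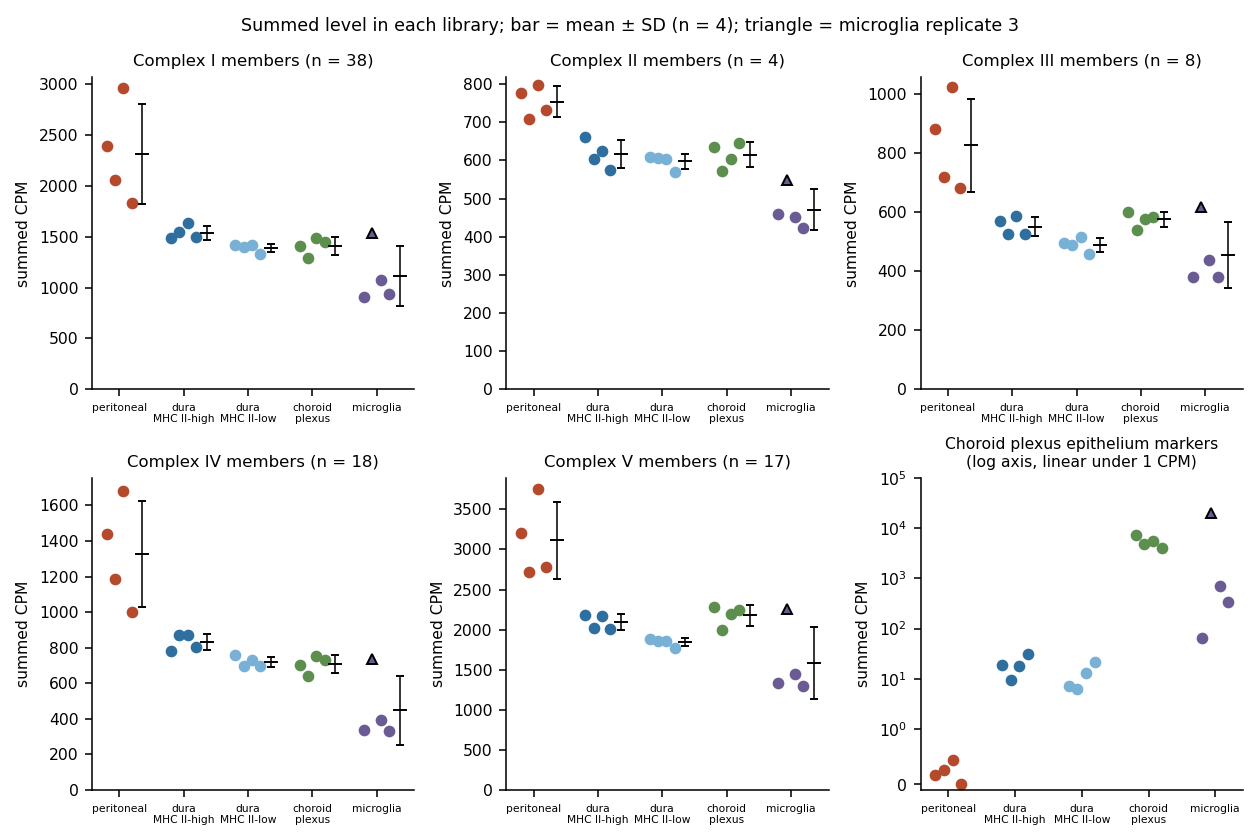
Summed level of the members of each complex in every library (CPM, vertical axis from 0), by population. The last panel holds the summed choroid plexus epithelium markers on a log axis that is linear near 0, without bars. Points are libraries, bars in the complex panels are means with SD, and the triangle is microglia replicate 3. The triangle lies above the other 3 microglia in all panels, at 2258 CPM for complex V, and at 20370 CPM for the epithelium markers.

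Of the 81 tested members, 77 differed among the 5 populations in the F test over all of them, where 81.4% of all genes did. The 4 that did not pass were Ndufs8 (adjusted p = 0.912 in edgeR's quasi-likelihood test), Cox7a1 (0.789), Atp5s (0.459) and Ndufab1 (0.0654). The mean level was highest in peritoneal macrophages for 71 of the 81 and lowest in microglia for 65. Without microglia replicate 3, microglia were lowest for 68. How many of all genes show this order is not given here, so these counts cannot be set against all genes.

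**Figure D2:**
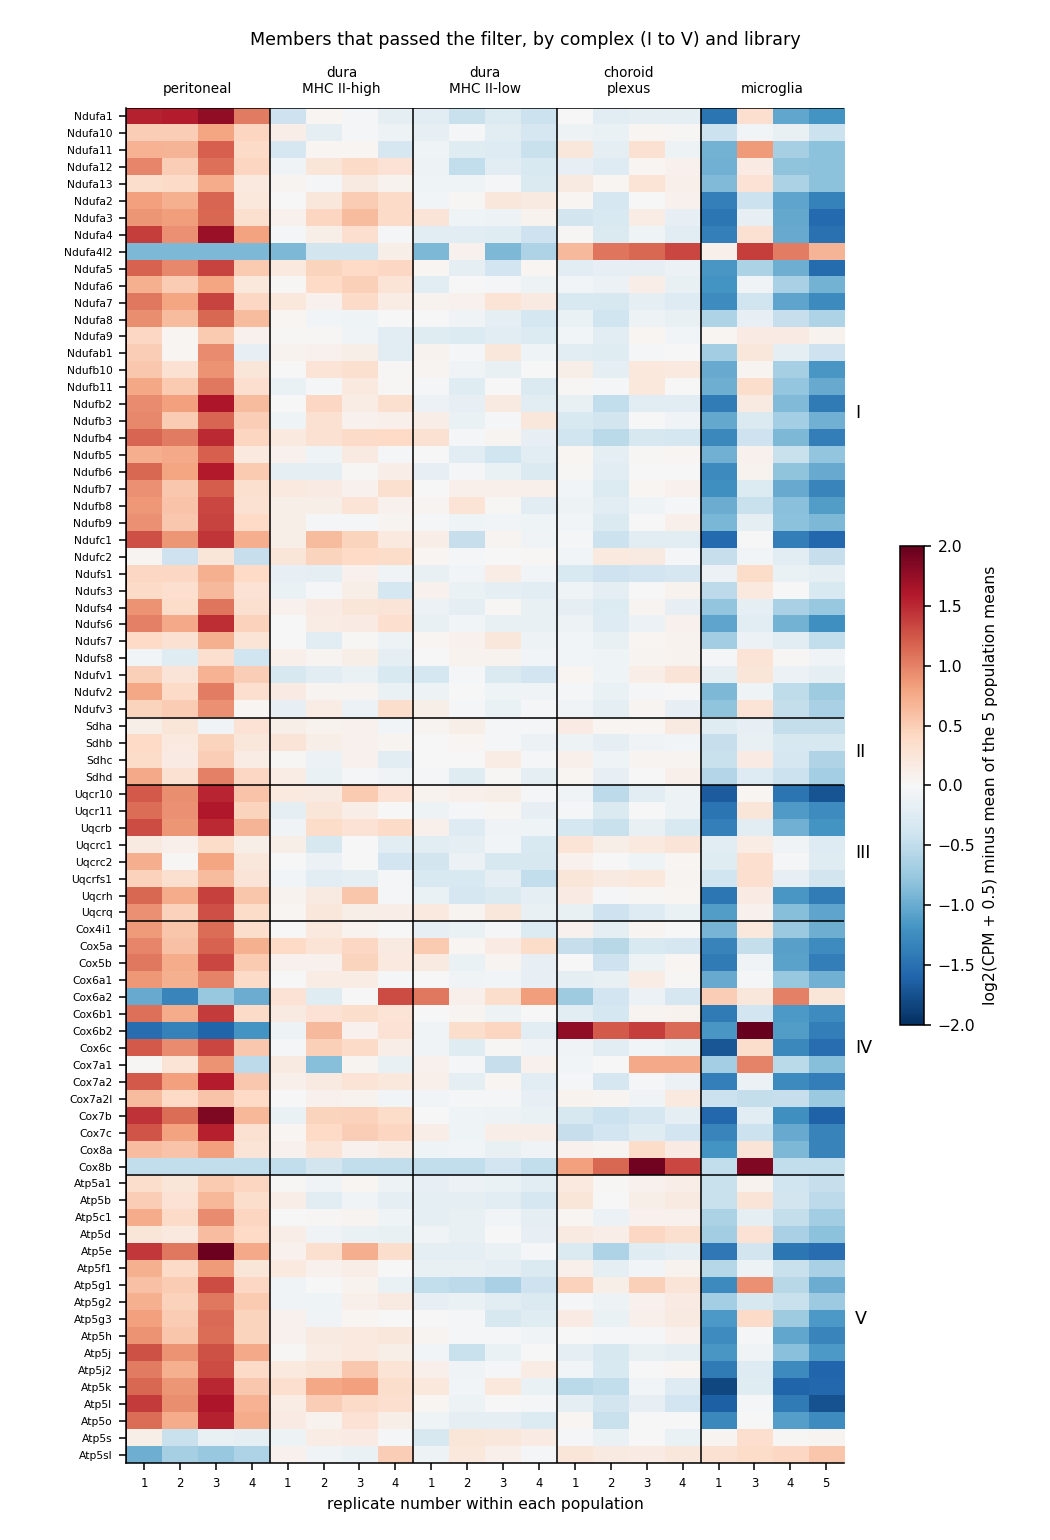
Level of the tested members, 1 of the 81 left out, in each of the 20 libraries, as log2(CPM + 0.5) minus the mean of the 5 population means of that gene, on a colour scale from -2 to 2, with the members grouped by complex. Most rows are high in the peritoneal columns and low in 3 of the 4 microglia columns; microglia replicate 3 lies above the other microglia in 78 of the 81 tested members.

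Peritoneal macrophages against microglia gave the widest difference. Of the tested members, 71 were called higher, where 31.7% of all genes were, and 5 were called lower, where 37.5% of all genes were. The median member was 1.25 higher on the log2 scale, while the median over all genes was -0.11. At least a 2-fold change was called for 50 members upward (18.9% of all genes) and 5 downward (25.7%). Every peritoneal library lay above every microglia library in 60 members, where 28.3% of all genes did so. Without microglia replicate 3, 72 of 83 tested members were called higher (30.7% of all genes) and 4 lower (35.3%), and the median was 1.60. With all libraries, the rise was seen in each complex: 33 of 37 tested members of complex I, 4 of 4 of complex II, 8 of 8 of complex III, 11 of 15 of complex IV and 15 of 17 of complex V. The 5 members called lower were Ndufa4l2, Cox6a2, Cox6b2, Cox8b and Atp5sl, and the 5 not called were Ndufs8, Ndufa9, Ndufc2, Cox7a1 and Atp5s.

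Ndufa1 (chrX:37187588-37191163, minus strand; positions are GENCODE M21 gene bodies on mm10) encodes a small accessory subunit in the membrane arm and was among the members of complex I that rose most. It was at 68.9, 70.6, 81.1 and 48.9 CPM in peritoneal replicates 1 to 4 and at 8.21, 29.6, 11.2 and 9.98 CPM in microglia replicates 1, 3, 4 and 5. The peritoneal values lay above all others, and replicate 3 was the only microglia library within or above the range of the dura and choroid plexus libraries (17.2–24.1 CPM). The peritoneal to microglia difference was 2.19 ± 0.29 (SE; adjusted p = 1.48e-06) in edgeR's quasi-likelihood test. Ndufa5 (chr6:24518666-24528013, minus strand), an accessory subunit of the peripheral arm, was at 33.8, 28.9, 38.3 and 21.3 CPM in peritoneal and 6.27, 9.32, 7.18 and 4.69 CPM in microglia libraries. Its groups did not overlap even with replicate 3, and the difference was 2.15 ± 0.19 (SE; adjusted p = 4.41e-09) by the same test. Ndufa5 was also higher in MHC II-high dura than in microglia, by 1.47 ± 0.19 (SE; adjusted p = 1.78e-06) (edgeR).

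Ndufs1 (chr1:63143596-63176833, minus strand) encodes the largest subunit of the catalytic core, which holds several of the iron-sulfur clusters. It was named, like Ndufs8, Ndufv1, Ndufa9, Uqcrc2, Uqcrfs1, Atp5s and Atp5sl, after its values were seen. Its level was 88.7, 88.9, 110.0 and 88.3 CPM in peritoneal, 53.8, 50.2, 51.0 and 52.9 CPM in choroid plexus and 61.8, 86.2, 61.0 and 59.0 CPM in microglia libraries. Choroid plexus was the lowest population here, and its 4 libraries were all below the 4 microglia libraries. Peritoneal macrophages were higher than microglia by 0.49 ± 0.11 (SE; adjusted p = 0.000854) and choroid plexus macrophages lower than microglia by -0.37 ± 0.12 (SE; adjusted p = 0.0144) (edgeR). Ndufs8 (chr19:3908863-3912774, minus strand), another iron-sulfur core subunit, spanned only 48.2–80.4 CPM over all 20 libraries, with the populations overlapping. Ndufv1 (chr19:4007384-4012806, minus strand), the subunit that binds NADH, was at 78.98, 67.7, 91.6 and 79.8 CPM in peritoneal and 49.9, 67.3, 52.2 and 49.9 CPM in microglia libraries, a difference of 0.54 ± 0.12 (SE; adjusted p = 0.000445) (edgeR).

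Ndufc2 and Ndufa9 went against the order seen in most members. Ndufc2 (chr7:97400003-97407802, plus strand), a membrane arm subunit, was at 64.6, 46.2, 73.4 and 45.0 CPM in peritoneal, 73.8, 84.6, 82.0 and 79.9 CPM in MHC II-high dura and 45.2, 59.9, 53.0 and 45.0 CPM in microglia libraries. All 4 MHC II-high dura libraries were above all peritoneal ones. Apart from Ndufa4l2, it was the only complex I member called lower in peritoneal macrophages than in MHC II-high dura, by -0.48 ± 0.13 (SE; adjusted p = 0.00468) (edgeR); the peritoneal to microglia difference did not pass (0.18 ± 0.13 SE, adjusted p = 0.25). Ndufa9 (chr6:126821721-126849136, minus strand), a peripheral arm subunit, was lower in MHC II-low dura (69.8, 68.0, 71.1 and 68.1 CPM) than in microglia (84.6, 92.5, 92.5 and 86.1 CPM) by -0.36 ± 0.10 (SE; adjusted p = 0.00498) (edgeR), and no library of one group reached the other.

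Ndufa4 and Ndufa4l2 are counted under complex I by symbol, although the Ndufa4 protein is known as a subunit of complex IV, and Ndufa4l2 is its paralog, known as a gene induced in low oxygen. Ndufa4 (chr6:11900292-11907497, minus strand) was at 160.1, 116, 203 and 106 CPM in peritoneal and 23.3, 75.4, 29.9 and 21.3 CPM in microglia libraries. Only microglia replicate 3 came near the peritoneal range, and the difference was 1.96 ± 0.31 (SE; adjusted p = 1.84e-05), or 2.52 ± 0.19 (SE), adjusted p = 4.04e-10, without replicate 3 (edgeR). Ndufa4l2 (chr10:127514967-127517154, plus strand) had no count in any peritoneal library and was at 0.961, 1.45, 1.56 and 1.84 CPM in choroid plexus and 0.501, 1.91, 1.39 and 0.991 CPM in microglia libraries. Dura libraries ranged from 0 to 0.511 CPM. Against 3 counts over the 4 peritoneal libraries, the choroid plexus mean was at least 52.6-fold higher and the microglia mean at least 43.5-fold higher.

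Complex II is the smallest of the 5, and all 4 of its subunits were called higher in peritoneal macrophages than in microglia. Sdha (chr13:74322254-74350280, minus strand), the flavoprotein that oxidises succinate, was at 294, 321, 258 and 331 CPM in peritoneal and 229, 242, 196 and 194 CPM in microglia libraries. The groups did not overlap, replicate 3 was close to the other microglia, and the difference was 0.48 ± 0.09 (SE; adjusted p = 0.000103) (edgeR). The dura and choroid plexus libraries (261–309 CPM) lay inside the peritoneal range, and Sdha was called higher than in microglia in all 3 of these populations, by 0.37–0.44. Sdhd (chr9:50596357-50603812, minus strand), a membrane anchor and the member whose promoter is printed above, was at 229.9, 169, 273 and 182 CPM in peritoneal and 90.7, 114, 101 and 85.0 CPM in microglia libraries. Its difference of 1.13 ± 0.13 (SE; adjusted p = 2.16e-07) (edgeR) was the largest in the complex with all libraries. Sdhb, the iron-sulfur subunit, and Sdhc, the other anchor, rose by 0.63 ± 0.08 (SE) and 0.58 ± 0.13 (SE).

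In complex III all 8 members were called higher in peritoneal macrophages than in microglia, with a wide range of sizes. The core proteins Uqcrc1 and Uqcrc2 and the Rieske iron-sulfur protein Uqcrfs1 had log2 fold changes of 0.29, 0.50 and 0.54. The small subunits Uqcrq, Uqcrh, Uqcr11, Uqcrb and Uqcr10 had changes of 1.48–2.14. With an offset for exon length, described below, the small subunits had changes of 0.62–1.42 and the core and Rieske proteins 0.15–0.46. Uqcrb (chr13:66900617-66905378, minus strand), which lies next to the ubiquinone site, was at 155, 116, 176 and 100.5 CPM in peritoneal and 23.9, 53.6, 31.8 and 26.9 CPM in microglia libraries, with no overlap (2.01 ± 0.21 (SE; adjusted p = 6.73e-08), edgeR). Part of its sequence, 25.4% of its 50-base words, is shared with other genes, so its counts are uncertain. Uqcrc1 (chr9:108936633-108949623, plus strand) was at 264, 251, 301 and 254 CPM in peritoneal, 283, 252, 268 and 279.7 CPM in choroid plexus and 200.5, 258, 222 and 196 CPM in microglia libraries, and its highest mean was in the choroid plexus. Microglia replicate 3 lay inside the peritoneal range. The peritoneal to microglia difference was 0.29 ± 0.11 (SE; adjusted p = 0.0202) (edgeR), and it was not called when peritoneal replicate 3, microglia replicate 1 or microglia replicate 5 was left out (adjusted p 0.0686–0.109).

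The members of complex IV split by paralog. The 11 that rose from microglia to peritoneal macrophages had log2 fold changes from 1.03 (Cox7a2l) to 2.42 (Cox7b). Cox4i1 (chr8:120668222-120674207, plus strand), the largest nuclear subunit and among the highest members per length, was at 304, 247, 363 and 215 CPM in peritoneal and 87.7, 194, 100.5 and 84.7 CPM in microglia libraries. No peritoneal library fell to the level of microglia replicate 3, and the difference was 1.27 ± 0.21 (SE; adjusted p = 1.92e-05) (edgeR). Cox7b (chrX:106015700-106022450, plus strand), a small membrane subunit, was at 85.1, 67.3, 115 and 49.4 CPM and 10.03, 26.6, 13.0 and 9.71 CPM in the same libraries. The groups did not overlap, and the difference was 2.42 ± 0.28 (SE; adjusted p = 3.24e-07) (edgeR). Cox7a2l (chr17:83501918-83517330, minus strand), which is known to link complexes III and IV in supercomplexes, was at 88.4, 75.6, 85.2 and 75.3 CPM in peritoneal, 57.7, 60.6, 59.9 and 54.7 CPM in MHC II-high dura and 42.2, 41.0, 41.3 and 34.0 CPM in microglia libraries. Here microglia replicate 3 was within the range of the other microglia, and the peritoneal to microglia difference was 1.03 ± 0.09 (SE; adjusted p = 2.37e-09) (edgeR).

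Cox5a (chr9:57521274-57532426, plus strand), a subunit on the matrix side of the complex, was at 146, 112, 169 and 122 CPM in peritoneal, 98.5, 90.1, 99.8 and 84.3 CPM in MHC II-high dura, 108, 76.7, 83.7 and 96.3 CPM in MHC II-low dura, 54.2, 50.6, 60.5 and 58.9 CPM in choroid plexus and 29.3, 53.4, 34.9 and 31.0 CPM in microglia libraries. The peritoneal libraries were the highest, the dura populations overlapped each other below them, and choroid plexus lay below all dura libraries, with microglia replicate 3 inside its range. Choroid plexus was lower than MHC II-high dura by -0.73 ± 0.16 (SE; adjusted p = 0.00311) and than MHC II-low dura by -0.70 ± 0.16 (SE; adjusted p = 0.00315) on the log2 scale (edgeR). Of the exon bases of Cox5a, 41.7% overlap another gene.

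Several subunits of complex IV have a second gene that is known from heart, skeletal muscle or testis. With all libraries, the common paralog of each tested pair was called higher in peritoneal macrophages than in microglia and the other was not; without microglia replicate 3 this held for all but Cox7a1, given below. Cox6b1 (chr7:30616861-30626151, minus strand) was at 142, 111, 174 and 85.6 CPM in peritoneal and 24.4, 50.1, 29.5 and 27.2 CPM in microglia libraries (1.97 ± 0.21 (SE; adjusted p = 5.57e-08), edgeR). Cox6b2 (chr7:4751792-4753094, minus strand), known from testis, was at 0.138, 0.219, 0.103 and 0.300 CPM in peritoneal, 5.76, 3.76, 4.27 and 3.50 CPM in choroid plexus and 0.313, 9.32, 0.347 and 0.198 CPM in microglia libraries. Its microglia level rested on replicate 3, which was higher than every other library. The peritoneal to microglia difference was -3.72 ± 0.94 (SE; adjusted p = 0.00156) with all libraries, and -0.64 ± 0.53 (SE; adjusted p = 0.303) without replicate 3 (edgeR). Without replicate 3, Cox6b2 was higher than in microglia by 2.46 ± 0.52 (SE; adjusted p = 0.000482) in MHC II-high dura, 2.32 ± 0.52 (SE; adjusted p = 0.000898) in MHC II-low dura and 3.81 ± 0.54 (SE; adjusted p = 7.48e-06) in choroid plexus (edgeR), where with it none of the 3 was called.

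Cox8a (chr19:7215153-7217616, minus strand) was at 123, 119, 140.5 and 96.2 CPM in peritoneal and 34.6, 95.8, 42.5 and 31.3 CPM in microglia libraries (1.23 ± 0.24 (SE; adjusted p = 0.00019), edgeR). Cox8b (chr7:140898945-140900446, minus strand), the muscle form, had no count in any peritoneal library or in microglia replicates 1, 4 and 5, and was at 0.739, 1.05, 2.17 and 1.27 CPM in choroid plexus and 2.04 CPM in microglia replicate 3. Each dura population had 1 count in all. Against 3 counts over the peritoneal libraries, the choroid plexus mean was at least 47.4-fold higher. The microglia mean was at least 18.5-fold higher than that floor through replicate 3 alone. Cox8b, apart from 1 count in each dura population, and the highest levels of Cox6b2 were thus in the libraries with 3994 CPM or more of choroid plexus epithelium markers. The part of epithelial RNA in these levels was not tested.

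Cox6a1 (chr5:115345642-115348981, minus strand), another of the promoters printed above, was at 185, 167, 203 and 133 CPM in peritoneal and 50.3, 99.2, 59.7 and 52.2 CPM in microglia libraries (1.40 ± 0.17 (SE; adjusted p = 3.96e-07), edgeR). Cox6a2 (chr7:128205435-128206387, minus strand), the muscle form, was at 0.207, 0.0729, 0.345 and 0.214 CPM in peritoneal, 2.46, 1.03, 1.32 and 2.04 CPM in MHC II-low dura and 1.505, 1.17, 2.37 and 1.19 CPM in microglia libraries. Microglia replicate 3 was the lowest of the microglia here, and no peritoneal library reached any microglia or dura library. The peritoneal to microglia difference was -2.86 ± 0.60 (SE; adjusted p = 0.000297), and -3.02 ± 0.64 (SE; adjusted p = 0.000311) without replicate 3 (edgeR). The muscle form Cox7a1 stayed between 0 and 1.30 CPM, and was called in none of the 4 comparisons with microglia, while Cox7a2 rose by 2.04 ± 0.25 (SE) in peritoneal macrophages. Without microglia replicate 3, which held 1.30 CPM against 0–0.116 CPM in the other microglia, Cox7a1 was called higher than in microglia in peritoneal macrophages (3.09 ± 1.18 SE, adjusted p = 0.0262) and choroid plexus (3.34 ± 1.19 SE, adjusted p = 0.0269; edgeR). Cox4i2, the lung form of subunit 4, was at most 0.948 CPM and had no count in peritoneal libraries.

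**Figure D3:**
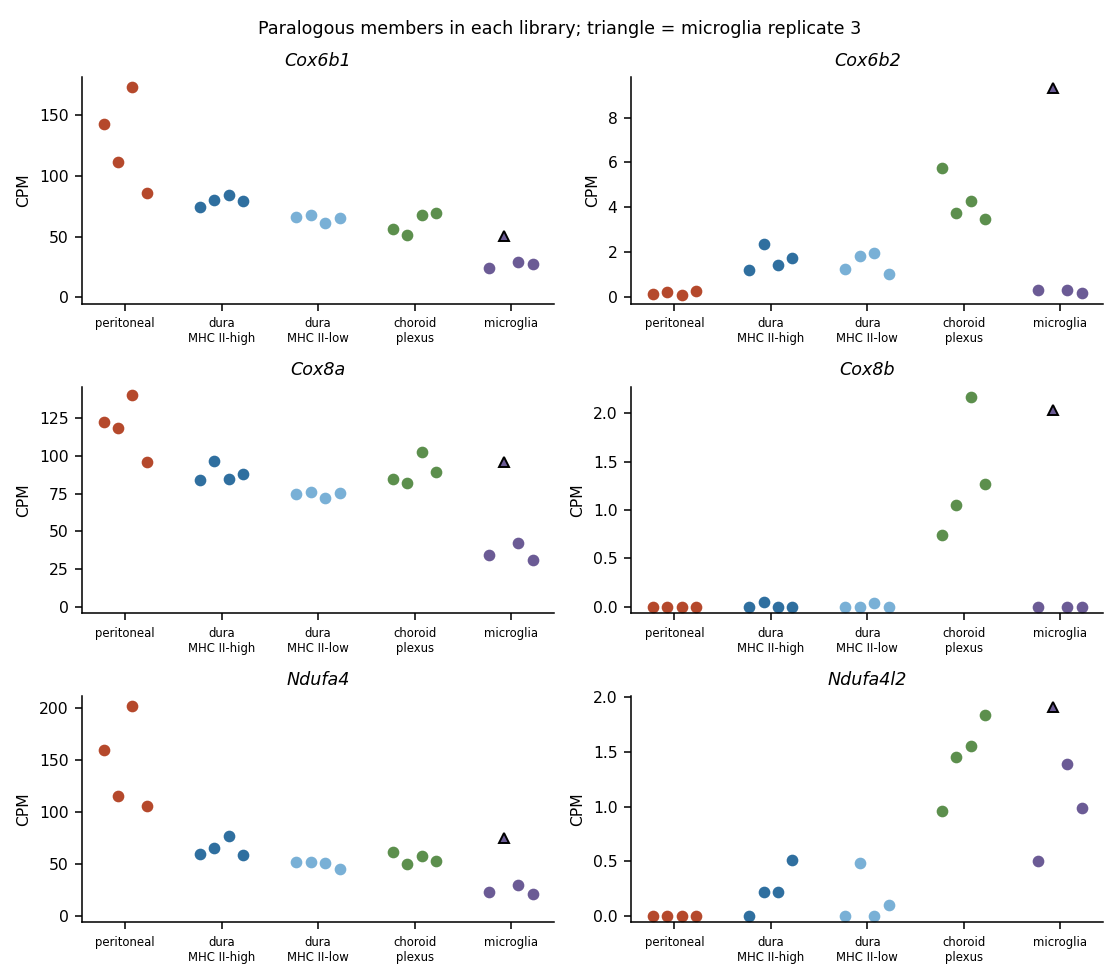
Level in CPM of 3 pairs of paralogs (Cox6b1 and Cox6b2, Cox8a and Cox8b, Ndufa4 and Ndufa4l2) in each library, by population, with microglia replicate 3 as a triangle. The common forms peak in the peritoneal libraries, at up to 203 CPM for Ndufa4, while the other forms are at 0 to 0.300 CPM there; microglia replicate 3 is the highest library for Cox6b2, at 9.32 CPM.

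In complex V, 15 members rose from microglia to peritoneal macrophages, and the other 2 members were Atp5s and Atp5sl. The 5 subunits of the F1 head (Atp5a1, Atp5b, Atp5c1, Atp5d and Atp5e) were all called higher, with a median log2 fold change of 0.77. Atp5b (chr10:128083273-128090391, plus strand) encodes the catalytic beta subunit and was the highest member per length, at a mean of 321 CPM per kb of exon. It was at 841, 737, 952 and 764 CPM in peritoneal and 443, 719.6, 464 and 419.5 CPM in microglia libraries. Microglia replicate 3 was the only microglia library near the peritoneal range, and the difference was 0.69 ± 0.14 (SE; adjusted p = 0.000191), or 0.86 ± 0.10 (SE), adjusted p = 3.38e-07, without it (edgeR). Atp5a1, the alpha subunit, was at 674, 621, 759.5 and 709 CPM and 386, 553, 401 and 381 CPM in the same libraries, with no overlap, and differed by 0.68 ± 0.10 (SE; adjusted p = 7.54e-06) (edgeR).

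Atp5e (chr2:174461072-174464105, minus strand), the epsilon subunit and one of the promoters printed above, was the member with the largest rise when all libraries were used. It was at 79.9, 62.6, 117 and 50.5 CPM in peritoneal, 31.6, 37.3, 49.6 and 38.2 CPM in MHC II-high dura, 26.1, 26.0, 27.1 and 29.0 CPM in MHC II-low dura, 24.2, 19.2, 25.1 and 26.0 CPM in choroid plexus and 10.7, 22.9, 10.6 and 10.04 CPM in microglia libraries. The peritoneal libraries were all above the others, and microglia replicate 3 was inside the choroid plexus range. The peritoneal to microglia difference was 2.51 ± 0.26 (SE; adjusted p = 7.63e-08) (edgeR). Atp5k (chr5:108433244-108434448, minus strand), the small subunit e that helps complex V form dimers, was at 25.1, 20.7, 32.2 and 16.2 CPM in peritoneal, 14.1, 19.3, 19.79 and 14.3 CPM in MHC II-high dura and 2.76, 9.26, 3.30 and 3.37 CPM in microglia libraries. Both Atp5k (2.87) and Cox7a1 (3.09) were above Atp5e (2.85) without microglia replicate 3, and with an offset for exon length, described below, Ndufb2 (2.11) was highest and Atp5e was at 1.22. From microglia to MHC II-high dura, Atp5k rose by 1.85 ± 0.30 (SE; adjusted p = 3.47e-05) (edgeR), the largest rise with all libraries. There Cox6b2 (2.46) was above Atp5k (2.36) without replicate 3, and Ndufc1 (1.09) was above it (0.92) with the length offset. For Atp5k the peritoneal and MHC II-high dura libraries overlapped.

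Subunit c, which forms the rotating ring in the membrane, comes from 3 genes for the same mature protein. Atp5g2 and Atp5g3 rose from microglia to peritoneal macrophages by 1.24 ± 0.12 (SE) and 1.27 ± 0.26 (SE), although 38.3% of the 50-base words of Atp5g2 are shared with other genes. Atp5g1 (chr11:96068852-96075670, minus strand) was at 85.0, 80.1, 141 and 75.6 CPM in peritoneal and 23.2, 107, 38.1 and 28.0 CPM in microglia libraries. Peritoneal replicate 3 and microglia replicate 3 each stood far above the others of their population, and the difference of 0.96 ± 0.34 (SE; adjusted p = 0.0192) (edgeR) was not called without peritoneal replicate 3 or any 1 of microglia replicates 1, 4 and 5 (adjusted p 0.0506–0.084). Without microglia replicate 3 it was 1.64 ± 0.19 (SE), adjusted p = 2.34e-07 (edgeR).

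Atp5s and Atp5sl carry the Atp5 symbol but are not established subunits of the enzyme. Both are known under the newer names Dmac2l and Dmac2. Atp5sl (chr7:25619414-25625551, plus strand) was at 9.67, 12.1, 11.2 and 12.5 CPM in peritoneal and 24.1, 25.3, 26.1 and 28.8 CPM in microglia libraries. Every peritoneal library was below every library of the other 4 populations, and Atp5sl fell from microglia to peritoneal macrophages, with a log2 fold change of -1.19 ± 0.13 (SE; adjusted p = 1.33e-07 by edgeR). Atp5s ranged over 5.17–9.26 CPM and was called in none of the 10 comparisons.

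The dura and choroid plexus macrophages were next compared with microglia. In MHC II-high dura, 54 of 81 members were called higher (29.4% of all genes) and 1 lower (24.1%), with a median log2 fold change of 0.59 where the median of all genes was 0.02. In MHC II-low dura, 40 were called higher (27.7% of all genes) and 4 lower (23.4%), with a median of 0.42. In choroid plexus, 47 were called higher (24.6% of all genes) and 1 lower (17.8%), with a median of 0.56. All libraries of the population lay above all microglia libraries in 38 members for MHC II-high dura (26.7% of all genes), 25 for MHC II-low dura (25.4%) and 11 for choroid plexus (25.1%). These counts were 64, 66 and 71 without microglia replicate 3 (31.1%, 30.2% and 35.3% of all genes). At least a 2-fold rise was called for 21, 10 and 0 members in these comparisons, where 15.7%, 13.8% and 12.1% of all genes had one. At least a 2-fold fall was called for 1, 2 and 0 members (12.2%, 12.7% and 7.11% of all genes). The 2-fold rises without microglia replicate 3 were 36, 26 and 27 (16.4%, 14.4% and 16.1% of all genes) and the 2-fold falls 0, 0 and 1 (11.5%, 11.3% and 7.69%). The 3 comparisons and the peritoneal one share the microglia libraries, so their lists are not independent of each other.

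These counts turned on 1 library of microglia more than the peritoneal ones did. Without microglia replicate 3, 64 of 83 members were called higher in MHC II-high dura (27.5% of all genes, median 0.94), 61 in MHC II-low dura (25.3%, median 0.77) and 67 in choroid plexus (26.1%, median 0.81), while 1, 2 and 2 were called lower (24.2%, 22.9% and 19.9%). Replicate 3 was above the other 3 microglia libraries in 78 of the 81 members (96.3%), while it was above them in 34.8% of all genes. Its median ratio to the mean of the others was 1.8 over the members, 2.32 in complex IV, 2.03 in complex III, 2.02 in complex V, 1.7 in complex I and 1.2 in complex II, and 1.0 over all genes. In the choroid plexus comparison the count of 47 became 28 without choroid plexus replicate 1 or 3, 22 without microglia replicate 1, 29 without microglia replicate 4 and 19 without microglia replicate 5. In the MHC II-low dura comparison the count of 40 became 25 without microglia replicate 5. The shares of all genes in these last fits are not given, so it is not shown that these counts exceed them. The part of epithelial RNA in the choroid plexus libraries and in replicate 3 was not tested.

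**Figure D4:**
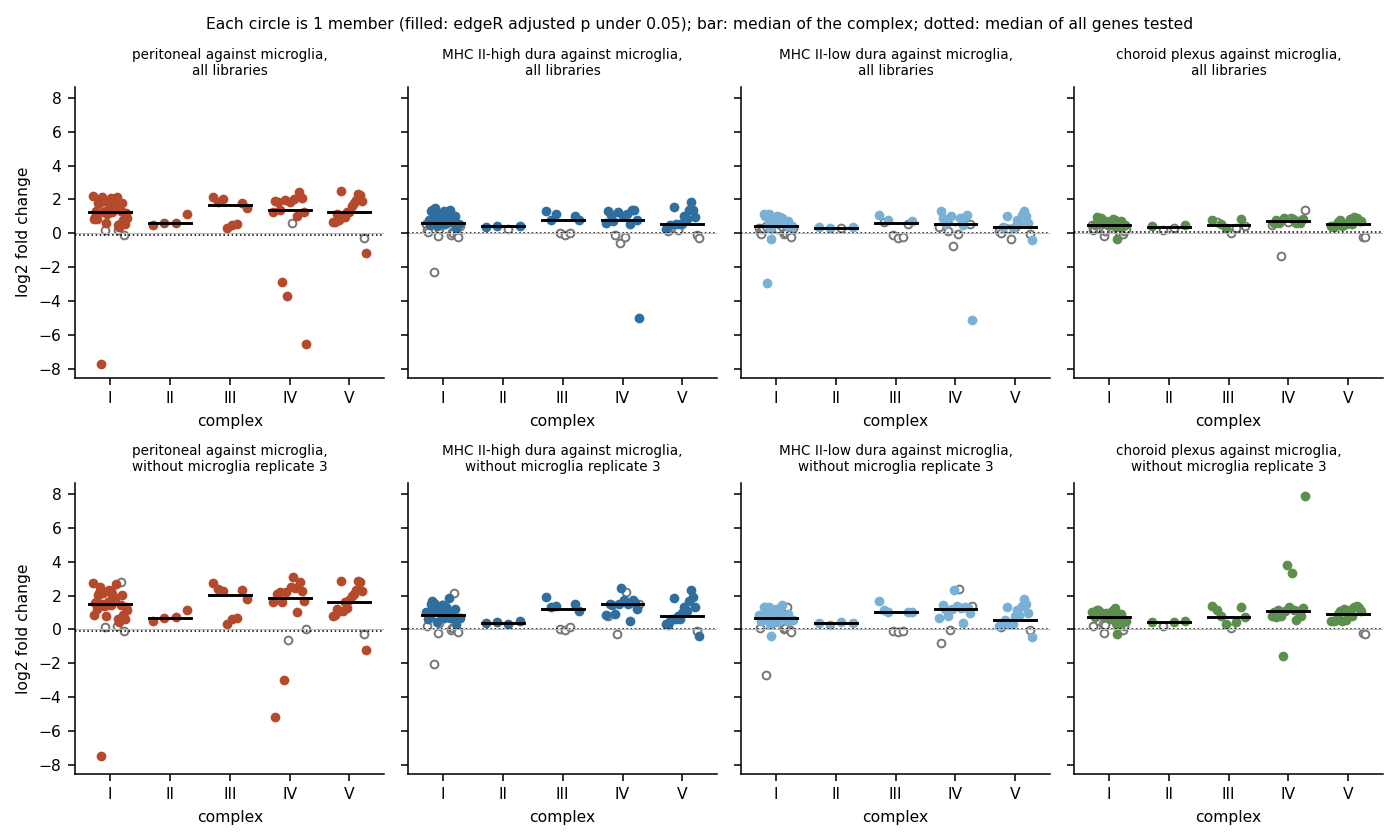
Log2 fold change against microglia of each tested member (points, filled where the adjusted p is under 0.05) by complex, for the 4 other populations, with all libraries in the top row and without microglia replicate 3 in the bottom row; bars are complex medians and dotted lines the median of all genes. The complex medians rise in the bottom row, in peritoneal macrophages from 1.40 to 1.88 for complex IV and from 0.60 to 0.69 for complex II.

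By complex, MHC II-high dura was called higher than microglia for 24 of 37 members of complex I, 3 of 4 of II, 5 of 8 of III, 11 of 15 of IV and 11 of 17 of V. In complex III the 5 called were the small subunits Uqcrq, Uqcr11, Uqcrh, Uqcrb and Uqcr10, with changes of 0.79–1.32. The core proteins Uqcrc1 and Uqcrc2 and the Rieske protein Uqcrfs1 had values from -0.09 to 0.00 and did not pass. With the length offset, described below, Uqcrq, Uqcrb and Uqcr10 stayed called higher. There Uqcr11 (-0.03, adjusted p = 0.897) and Uqcrh (0.29, adjusted p = 0.207) were not called, and Uqcrfs1 was called lower (-0.25, adjusted p = 0.0419, edgeR). MHC II-low dura was called higher for 17, 3, 3, 8 and 9 members of complexes I to V, and choroid plexus for 19, 2, 4, 9 and 13. These counts by complex include microglia replicate 3, and the shares of all genes in the 3 comparisons are those given above. Without that library, Uqcr11 and Uqcrh were also called higher in MHC II-low dura (adjusted p = 5.27e-05 and 5.34e-05 by edgeR). The members called lower were Cox8b in both dura populations, and Atp5sl, Ndufa4l2 and Ndufa9 in MHC II-low dura, and Ndufs1 in choroid plexus. All 33 microglia counts of Cox8b were in replicate 3, and without it Cox8b was called in neither dura population (adjusted p = 0.495 and 0.525 by edgeR), with at most 1 count in each group. The 1 lower call in MHC II-high dura became 0 without its replicate 1, 2 without MHC II-low replicate 4, choroid plexus replicate 1, 2 or 3 or microglia replicate 1, and 3 without peritoneal replicate 4. The 4 in MHC II-low dura became 2 without its replicate 1 or microglia replicate 3. The 1 in choroid plexus became 2 without its replicate 3, MHC II-high replicate 4, peritoneal replicate 4 or microglia replicate 3. Apart from the fit without microglia replicate 3, the shares of all genes in these fits are not given.

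Peritoneal macrophages were also above the dura and choroid plexus cells. Against MHC II-high dura, 61 members were called higher (22.8% of all genes) and 5 lower (31.5%), with a median log2 fold change of 0.62. Against MHC II-low dura, 69 were called higher (25% of all genes) and 4 lower (32.6%), with a median of 0.78. Against choroid plexus, 60 were called higher (27% of all genes) and 5 lower (35.8%), with a median of 0.76. All peritoneal libraries lay above all MHC II-high dura libraries in 58 members, where 19% of all genes did so. At least a 2-fold rise was called for 5, 24 and 28 members in the 3 comparisons (9.18%, 11.9% and 12.6% of all genes), and a 2-fold fall for 3, 3 and 4 (20.1%, 20% and 24.1%). Without microglia replicate 3, which is in none of these populations but enters the shared fit, 69, 70 and 69 were called higher (24.8%, 26.4% and 28.3%) and 6, 5 and 6 lower (31.5%, 32.4% and 35%). Peritoneal replicate 3 was the highest library in the sums of all 5 complexes, and without it the counts called higher were 41, 62 and 54. The shares of all genes in that fit are not given. Ndufa4l2, Cox6b2, Cox6a2 and Atp5sl were called lower in all 3 comparisons, together with Ndufc2 against MHC II-high dura and Cox8b against choroid plexus. Sdha and Ndufs8 were called in neither dura comparison, with changes of -0.09 to 0.12.

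No member was called between the 2 dura populations by edgeR's quasi-likelihood test, where 5.77% of all genes were called higher and 5.19% lower in the MHC II-high cells. At an unadjusted p under 0.05, 6 members were higher (13% of all genes) and 0 lower (11.3%), and DESeq2 called 0. The median member was 0.17 higher in MHC II-high cells, against 0.02 over all genes. All MHC II-high libraries lay above all MHC II-low libraries in 26 members, where 9.96% of all genes did so, and below them in 0 (8.19%). A fit of these 8 libraries alone, whose spread comes only from the dura, called 10 members higher (7.99% of all genes) and 0 lower (7.2%). Leaving out microglia replicate 3 (6.89% of all genes higher and 5.81% lower) or peritoneal replicate 3 (6.62% and 5.98%) called 1 member higher and 0 lower. No member was called at 2-fold, where 2.39% of all genes were higher and 1.48% lower.

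Choroid plexus macrophages were called higher than MHC II-high dura for 3 members (12.9% of all genes) and lower for 8 (13.3%). The 8 lower ones were Atp5k, Atp5e, Cox5a, Cox7c, Uqcrb, Ndufb4, Ndufa5 and Sdhb, with log2 fold changes of -0.95 to -0.23, and the 3 higher ones were Cox8b, Ndufv1 and Uqcrc1. Against MHC II-low dura, 5 were called higher (15.8% of all genes) and 2 lower (13.3%). The higher ones were Cox8b, Ndufa4l2, Uqcrfs1, Uqcrc1 and Ndufv1, and the lower ones Cox5a and Ndufs1. With all libraries in the shared fit, these shares of the 81 members lie below those of all genes. Fits of choroid plexus with each dura population alone called more members in both directions, as given near the end. Their shares of all genes are not given. The 16 of 83 lower calls against MHC II-high dura without microglia replicate 3 lie above the 14.2% of all genes. All choroid plexus libraries lay below all MHC II-high dura libraries in 29 members (15.8% of all genes) and above them in 6 (18.1%). Against MHC II-low dura they lay below in 9 (16.2%) and above in 15 (21%). The 8 lower calls against MHC II-high dura became 3 without high dura replicate 2, high dura replicate 3 or choroid plexus replicate 1, 4 without high dura replicate 4, choroid plexus replicate 2 or choroid plexus replicate 4, 5 without choroid plexus replicate 3, and 16 without microglia replicate 3. That library is in neither population, and whether its effect came through the shared spread, the count filter or the adjustment was not tested. The 3 higher calls became 1 without any of high dura replicates 2 and 4 and choroid plexus replicates 1, 3 and 4, and 6 without microglia replicate 3 (14.6% of all genes, and 14.2% for the lower calls). The 5 higher calls against MHC II-low dura became 3 without any of low dura replicates 1, 3 and 4 and choroid plexus replicates 3 and 4, and 10 without microglia replicate 3 (17.5%). At 2-fold or more, 1 member was higher and 0 lower than in high dura (5.87% and 4% of all genes), and 2 were higher and 0 lower than in low dura (8.63% and 4.18%). The 2 lower calls became 1 without MHC II-low replicate 3 or 4 or choroid plexus replicate 4. Where no share is given for a fit with a library left out, its count cannot be set against all genes.

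The members are short genes, and the changes moved with exon length. Of the tested members, 41 have under 1000 bases of exon. Their median log2 fold change between peritoneal macrophages and microglia was 1.76, and that of the other 40 was 0.87. Over all genes, those under 1000 bases (619 genes) had a median of 1.01, against -0.11 for all lengths. In MHC II-high dura, MHC II-low dura and choroid plexus against microglia, the short genes had medians of 0.69, 0.50 and 0.51. Across the 81 members, Spearman's rho between exon length and the peritoneal to microglia change was -0.49, and members share libraries and are not independent. Whether the length relation comes from the RNA, the library preparation or the cells was not tested.

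An offset that removes the trend of counts with exon length in each library left most peritoneal calls and fewer of the others. With it, 64 members were called higher (35.2% of all genes) and 8 lower (34.9%) in peritoneal macrophages than in microglia, with a median of 0.73, while short genes as a whole had a median of 0.19. MHC II-high dura against microglia then had 35 higher and 8 lower (26.6% and 27.7% of all genes; median 0.22). MHC II-low dura had 25 and 10 (24.9% and 26.7%; median 0.09), and choroid plexus 15 and 5 (21.6% and 20.9%; median 0.22). The higher share of the members was thus near that of all genes in MHC II-low dura and below it in choroid plexus. With the offset and without microglia replicate 3, the same 4 comparisons called 67, 52, 45 and 55 of 83 members higher (34.1%, 26.2%, 24.5% and 25.2% of all genes). Under the offset Ndufc2 went from 0.18 to -0.71 in peritoneal macrophages against microglia and was called lower. Sdhb, Cox8a and Uqcrc1 were no longer called in that comparison, at 0.13, 0.19 and 0.15.

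**Figure D5:**
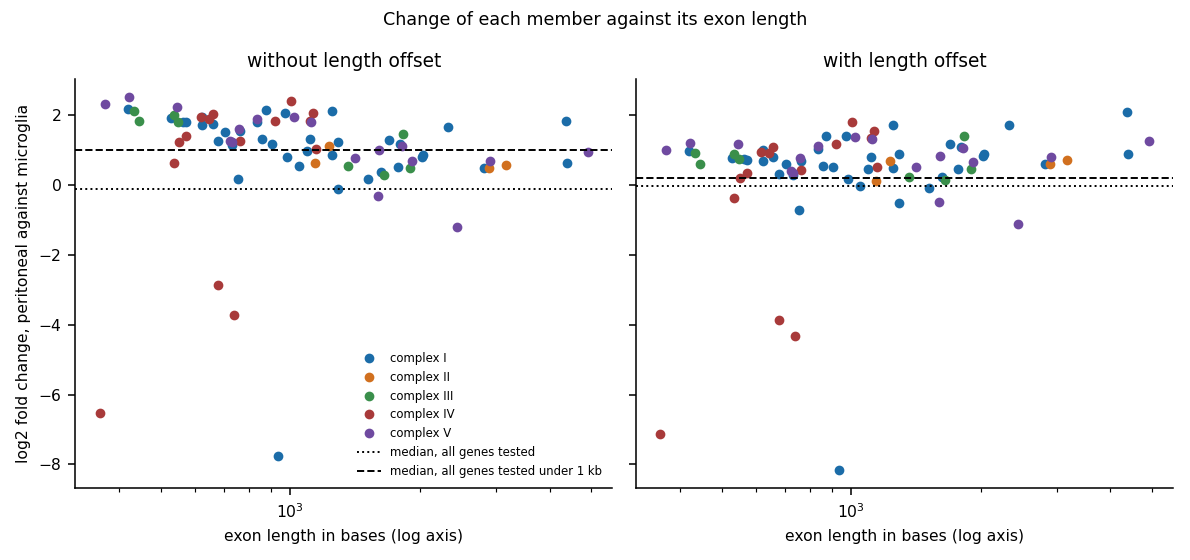
Log2 fold change between peritoneal macrophages and microglia of each tested member against its exon length in bases (log axis), without a length offset (left) and with it (right); the dotted line is the median of all genes and the dashed line that of genes under 1000 bases. On the left the short-gene median is 1.01, and on the right it is 0.19, with 64 members still called higher.

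The genes of cytosolic ribosomal proteins, which are also short and highly expressed, moved in the same order of populations. Summed over the list, they held 12330–18770 CPM in peritoneal, 7034–8889 CPM in high dura cells, 5538–5737 CPM in low dura cells, 7093–7915 CPM in choroid plexus and 3905–4667 CPM in microglia libraries. Of 83 tested, 79 were called higher in peritoneal macrophages than in microglia (median 1.93). Microglia replicate 3 was at 4541 CPM, inside the range of the other microglia, unlike in the sums of the oxidative phosphorylation members. Between the dura populations, 60 of the 83 ribosomal genes passed as higher in the MHC II-high libraries and 2 as lower, and 0 members did. The shares of all genes called in both comparisons are those given above.

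Other genes of the pathway were taken from lists of pathway genes. Cytochrome c, cytochrome c1 and 3 further subunits whose symbols fall outside the naming rule were called higher in peritoneal macrophages than in microglia in 5 of 5 cases, with a median of 1.96. Cycs, which encodes cytochrome c, the carrier between complexes III and IV, was at 188, 112, 202 and 137 CPM in peritoneal and 42.0, 87.9, 57.5 and 52.0 CPM in microglia libraries. Assembly factors were called higher and lower in 7 and 2 of 15 for complex I, 4 and 0 of 4 for complex II, 3 and 2 of 6 for complex III, 13 and 2 of 22 for complex IV and 2 and 0 of 3 for complex V. Citric acid cycle enzymes were called higher in 10 of 13 and lower in 0 (median 0.51). Carriers of nucleotides, phosphate and metabolites were called higher in 3 of 6 and lower in 2. The shares of all genes called higher and lower in this comparison are those given above. The lower counts of the carriers and of the complex III assembly factors lie near that lower share.

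Of 12 tested regulators of mitochondrial biogenesis, 2 were called higher and 5 lower in peritoneal macrophages than in microglia, with a median of -0.41. Their lower share was near that of all genes (37.5%), and their higher share was below it (31.7%). The list includes Nrf1, Gabpa and Yy1, the genes of the factors whose motifs were counted above. In MHC II-high dura against microglia 2 of the 12 were called higher and 3 lower (29.4% and 24.1% of all genes), and of the 13 citric acid cycle enzymes 2 were called higher and 2 lower, with a median of -0.03. The mitochondrially encoded subunits were not analysed here.

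Some members share sequence or exons with other genes, and how reads on shared stretches or on either strand were counted is not given in the sources used here. Of the 50-base words in their exons, 22.1% in Cox7c, 21.7% in Ndufs5, 18.3% in Ndufb4, 15.6% in Ndufb9 and 14% in Atp5o also occur in other genes. The same holds for 19.9% in Atp5h, 17.7% in Ndufa12 and 16.1% in Ndufs3. Exons of other genes overlap 48.6% of the exon bases of Atp5o, 39% of Ndufb6, 30% of Ndufa13, 28.6% of Ndufb9, 26.6% of Uqcrc2, 24.4% of Atp5l and 21% of Atp5f1. Reads from these stretches may have been counted for another gene or for none, so the levels of these members are uncertain.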

How the data were processed

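Total RNA of 5 macrophage populations was measured in 4 libraries each. The submitters' processing notes name mm10, TopHat2 2.1.0, SAMtools 0.1.18, Trimmomatic 0.38 and FastQC 0.11.4. How the authors counted reads, with which annotation and on which strand, is not given in the sources used here. Each deposited table holds whole-number counts of reads per gene symbol. Lines for reads given to no gene were left out of library sizes; 5.67–13.1% of reads were in no feature and 0.836–1.51% were ambiguous.

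One model without covariates was fitted in edgeR 4.0.16 (R 4.3.3) to all 20 libraries. Genes were kept by filterByExpr (13960 genes), the TMM factors spanned 0.923–1.05, and the fit, a robust quasi-likelihood one, had 15 residual degrees of freedom and a common biological coefficient of variation of 0.302. P-values were adjusted over all tested genes, and 10 pairs of populations were compared. A fit of simulated counts for peritoneal macrophages against microglia, with 200 of 13960 genes changed, called 40% of the 2-fold and 99% of the 4-fold changes. In a library 3 counts, the floor used for genes at 0, equal 0.092–0.224 CPM, which covers counting error only.

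The members and all lists were chosen with earlier results of these data known. Members were named if called at 2-fold or more in any comparison (the 30 with the largest change), among the 3 highest per length or the 2 smallest p-values of their complex, or paralogs; members named outside this rule are marked. The values of 1 member of complex I are not reported here on their own, and the heat map leaves it out. Exon lengths and positions are from GENCODE M21, which may not be the authors' annotation. The alternatives were RLE scaling, 2 other count filters, DESeq2 1.42.0, a replicate block, each library left out, fits of 2 populations alone, a 2-fold call and a length offset (13878 genes, loess span 0.5). The length offset without microglia replicate 3 was added after seeing the data.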

Additional observations from a re-analysis of the deposited data

Results flagged for a closer look

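In 302 groups of 4 libraries, the highest or lowest library stood away from the other 3 by Dixon's criterion in 37 cases, where chance alone gives about 1 in 20 groups. Of the 37, 25 were microglia replicate 3, always as the highest library.

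In complexes I and III, replicate 3 of the microglia was at 29.6 CPM for Ndufa1, against 8.21–11.2 CPM in the other 3. It was at 75.4 CPM for Ndufa4 (others 21.3–29.9), 41.0 CPM for Ndufb9 (24.6–26.2), 20 CPM for Ndufc1 (6.34–7.29), 86.2 CPM for Ndufs1 (59.0–61.8) and 67.3 CPM for Ndufv1 (49.9–52.2). It was at 29.8 CPM for Uqcr10 (8.39–10.2), 34.8 CPM for Uqcr11 (10.3–13.1) and 30.7 CPM for Uqcrh (9.72–11.9).

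In complex IV the same library was at 194 CPM for Cox4i1 (84.7–100.5), 9.32 CPM for Cox6b2 (0.198–0.347), 72.6 CPM for Cox6c (17.1–22.9), 1.30 CPM for Cox7a1 (0–0.116), 34.7 CPM for Cox7a2 (14.1–15.2) and 2.04 CPM for Cox8b (0 in the others). The complex IV sum was 738 CPM (329–393). In complex V it was at 553 CPM for Atp5a1 (381–401), 720 CPM for Atp5b (419–464), 22.9 CPM for Atp5e (10.04–10.7), 33.1 CPM for Atp5j2 (12.9–16.2), 9.26 CPM for Atp5k (2.76–3.37), 41.4 CPM for Atp5l (12.2–15.5), 57.9 CPM for Atp5o (23.1–26.6) and 9.26 CPM for Atp5s (7.41–7.58). The complex V sum was 2258 CPM (1297–1447).

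Of the other 12, peritoneal replicate 3 was high for Atp5g1 (140.6 CPM, others 75.6–85.0) and Ndufs1 (110.0 CPM, others 88.3–88.9), and microglia replicate 5 was low for Cox7a2l (34.0 CPM, others 41.0–42.2). In choroid plexus, replicate 1 was high for Ndufa1 (23.4 CPM, others 20.1–20.5) and replicate 2 low for Atp5o (42.3 CPM, others 57.4–59.3). In MHC II-low dura, replicate 2 was low for Cox7c (23.0 CPM, others 26.9–27.0) and high for Ndufs6 (20.5 CPM, others 19.2–19.3), and replicate 4 was low for Ndufa4 (45.4 CPM, others 51.4–52.5) and the complex II sum (569 CPM, others 604–610). There, replicate 1 was low for Atp5s (5.68 CPM, others 8.14–8.61). Cox8b had a single count in MHC II-high dura replicate 2 (0.0446 CPM) and in MHC II-low dura replicate 3 (0.0377 CPM), with 0 in the others of each population.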

How the results depend on the processing

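Of the values of named members under an alternative, 13904 kept their direction and their side of the threshold, 519 were no longer called and 317 became called with the same sign, and 230 changed sign; the cause was not tested. Of these 230, 210 were called neither with all libraries nor under the alternative (123 of them with a library left out, 59 under a length offset), and 20 were called in at least one. Comparisons in which a member had at most 3 counts in a population, such as Cox8b in the dura, are not among these values. Leaving out each library in turn gave these ranges of members called higher and lower: MHC II-high against MHC II-low dura 0–1 and 0–0; against microglia, MHC II-high dura 43–64 and 0–3, MHC II-low dura 25–61 and 2–6, choroid plexus 19–67 and 1–2, peritoneal 68–72 and 4–7; choroid plexus against MHC II-high dura 1–6 and 3–16 and against MHC II-low dura 3–10 and 1–3; peritoneal against MHC II-high dura 41–69 and 5–6, MHC II-low dura 62–71 and 4–5, and choroid plexus 54–69 and 4–7. Members that differed among populations stayed at 76–79. With the 2-fold call, higher and lower members against microglia were 21 and 1 for MHC II-high dura, 10 and 2 for MHC II-low dura and 0 and 0 for choroid plexus (without microglia replicate 3, 36 and 0, 26 and 0, and 27 and 1); choroid plexus against MHC II-high and MHC II-low dura gave 1 and 0, and 2 and 0; peritoneal libraries gave 5 and 3 against MHC II-high dura, 24 higher against MHC II-low dura and 28 higher against choroid plexus. With the length offset, 1 member was higher in MHC II-high than MHC II-low dura. Against microglia the offset gave 35 higher and 8 lower for MHC II-high dura, 25 and 10 for MHC II-low dura, 15 and 5 for choroid plexus and 8 lower for peritoneal; choroid plexus against MHC II-low dura gave 8 and 5. With the offset and 3 microglia libraries, 2 were higher between the dura populations; against microglia 5, 7, 4 and 8 were lower in MHC II-high dura, MHC II-low dura, choroid plexus and peritoneal cells; choroid plexus gave 7 and 19 against MHC II-high dura and 15 and 8 against MHC II-low dura; peritoneal gave 7 lower against MHC II-low dura. Fits of the 2 populations alone gave 10 higher between the dura populations; against microglia 0 lower in MHC II-high dura, 15 higher and 4 lower in choroid plexus and 3 lower in peritoneal cells; and for choroid plexus 8 and 26 against MHC II-high dura and 14 and 8 against MHC II-low dura. Where this report gives no share of all genes for a count listed here, the count cannot be set against all genes. RLE scaling and DESeq2 each gave 4 lower in MHC II-high dura and 3 lower in choroid plexus against microglia, and DESeq2 gave 8 higher in choroid plexus than MHC II-low dura. The 10 CPM filter, which tests fewer genes, gave 2, 2 and 1 lower against microglia in MHC II-high dura, choroid plexus and peritoneal cells, and 2, 1 and 1 lower in peritoneal cells against MHC II-high dura, MHC II-low dura and choroid plexus.

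The 20 called values that changed sign were all against microglia. They were, under the length offset, Atp5g2 (-0.0569), Cox6a1 (-0.0349), Ndufa8 (-0.109) and Uqcr11 (-0.0323) in MHC II-high dura, Atp5g2 (-0.163), Ndufa8 (-0.123) and Sdhb (-0.0359) in MHC II-low dura, and Ndufc2 in choroid plexus (-0.0948) and peritoneal cells (-0.71). Under the offset with 3 microglia libraries they were Atp5g2 (-0.0595), Ndufa8 (-0.0813) and Cox6b2 (1.84) in MHC II-high dura, Atp5g2 (-0.169), Ndufa8 (-0.0978), Sdhb (-0.0456) and Cox6b2 (1.82) in MHC II-low dura, and Ndufc2 in choroid plexus (-0.0958) and peritoneal cells (-0.69). Over the libraries left out, Cox6b2 ranged from -1.02 to 2.46 in MHC II-high and from -1.17 to 2.32 in MHC II-low dura, the highest values being those without microglia replicate 3. Deviations of same-numbered libraries correlated at -0.146 to 0.12, with 1 of 36 pairs over 0.1. Between the dura populations they were 0.0239, 0.0862, 0.0539 and 0.12 in replicates 1 to 4. Such values cannot show whether replicate numbers pair the samples, and the labels do not say. With the replicate block, 8 members in place of 5 were higher in choroid plexus than MHC II-low dura, and the other counts stayed within 1.5 times. Depth limits Cox7a1, Cox6a2, Cox6b2, Cox8b and Ndufa4l2, which lie near the floor of 3 counts in some libraries.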
